A study of Mus musculus with 2 samples.

Results

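The proneural and neuronal basic helix-loop-helix (bHLH) factors are 9 transcription factor genes, *Neurog1*, *Neurog2*, *Neurod1*, *Neurod2*, *Neurod4*, *Neurod6*, *Bhlhe22*, *Nhlh1* and *Nhlh2*, taken by symbol from the 24411 genes listed for each library. All 9 were listed. Brain tissue of mouse embryos at embryonic day 16.5 was frozen fresh, and a laser microscope cut pieces of each area. These were labelled subventricular zone (SVZ), a layer near the lateral ventricle where progenitors divide, and cortex (CTX), where the neurons settle. Each area gave 1 bulk RNA-seq library, called SVZ and CTX, with 51435667 reads assigned to genes for the SVZ and 22050693 for the cortex, a depth ratio of 2.33. The sources used here do not give strain, sex or number of embryos, no genotype or treatment is named for either library, and the areas served as a benchmark for a light-directed barcoding method that is not analysed here.

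A bHLH factor binds DNA as a dimer, usually with a widely expressed E protein such as *Tcf3*, *Tcf4* or *Tcf12*, at a short sequence called the E-box, CANNTG. In the dorsal telencephalon the neurogenins are the proneural factors: made in progenitors, they start the neuronal programme and switch on a series of further bHLH genes. *Neurod1* and *Neurod4* act in intermediate progenitors and newly formed neurons, *Nhlh1* is switched on briefly as cells become neurons, and *Neurod2*, *Neurod6* and *Bhlhe22* are known from postmitotic projection neurons. Id proteins, which lack a DNA-binding region, and most Hes and Hey repressors oppose these factors.

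The coding bases of the protein stretch that contacts the E-box are shown first, because that stretch is what the 9 genes have in common. The lines give the coding strand 5′ to 3′ over 12 codons of each gene (GENCODE M21 transcripts, GRCm38). Capitals mark the 5 codons of the basic region that begin with arginine, glutamate and arginine.
Neurog1, codons 98 to 109: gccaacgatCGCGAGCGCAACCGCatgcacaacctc
Neurog2, codons 117 to 128: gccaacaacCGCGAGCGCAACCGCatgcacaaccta
Neurod1, codons 106 to 117: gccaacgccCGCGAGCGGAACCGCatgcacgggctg
Neurod2, codons 127 to 138: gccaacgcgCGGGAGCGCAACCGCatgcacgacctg
Neurod4, codons 92 to 103: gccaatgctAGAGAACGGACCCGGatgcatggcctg
Neurod6, codons 99 to 110: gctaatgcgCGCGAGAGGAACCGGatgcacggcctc
Bhlhe22, codons 221 to 232: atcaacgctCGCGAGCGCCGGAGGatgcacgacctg
Nhlh1, codons 80 to 91: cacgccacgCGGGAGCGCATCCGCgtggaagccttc
Nhlh2, codons 82 to 93: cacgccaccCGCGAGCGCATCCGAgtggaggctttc

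Over 63 coding bases counted from the first capital, *Neurog1* and *Neurog2* shared 88.9% of bases, as did *Neurod1* and *Neurod2*, and *Nhlh1* and *Nhlh2* shared 85.7%. Base identity did not separate the Neurog and Neurod genes. *Neurod2* shared 84.1% with *Neurog2* and 82.5% with *Neurog1*, but 77.8% with *Neurod6*. *Neurod1* shared 79.4% with *Neurog2* and 77.8% with *Neurod6*. The lowest identity, 50.8%, was between *Neurod4* and *Nhlh2*. *Neurod4* had 63.5% base identity to *Neurod1* and to *Neurod2* and 69.8% to *Neurod6*. Base identity also counts codon differences that leave the amino acid unchanged, so it does not measure likeness of the proteins. In the lines above, the codons of *Neurod1* and *Neurod6* encode the same amino acids. Those of *Neurod4* differ from them only by threonine for asparagine. The longest run of bases shared by the transcripts of any 2 of these genes was 26, between *Neurog1* and *Neurog2*, against sequenced reads of 75 bases, so an untrimmed read that matches its gene in full cannot match another of the 9 in full.

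Levels are CPM, a gene's reads per 1000000 reads assigned to genes in its library. Ratios are log2 of SVZ CPM over cortex CPM, with no pseudocount. Intervals are exact 95% intervals, Clopper-Pearson for ratios and Poisson for levels, and cover the counting error of reads only. Reads without molecular identifiers can be PCR copies, so the intervals can be too narrow for the molecules behind them. With 1 library per area no difference has a replicate check, no p-value was computed, and an interval away from 0 separates these 2 libraries rather than the areas. Where a gene had 0 reads, up to 3 reads (0.0583 CPM for SVZ, 0.136 CPM for CTX) remain possible, and a ratio against 0 is given as a bound at that limit.

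The 9 genes divided between the areas. Of the 9, 5 were at least 4-fold higher in SVZ (*Neurog1*, *Neurog2*, *Neurod1*, *Neurod4* and *Nhlh1*), 1 was at least 4-fold higher in CTX (*Bhlhe22*), *Neurod2* and *Neurod6* were higher in CTX by less than 2-fold, and *Nhlh2* did not differ beyond counting error. Among the 12738 genes whose mean CPM reached 1, 10.2% were at least 4-fold higher in SVZ, and 7.01% in CTX. Shares of all genes with a higher or lower ratio, given below, are over these 12738. The median log2 ratio was 2.85 over the 9 genes and 0.11 over all genes. With a pseudocount of 1 CPM these medians were 1.86 and 0.11, and with a minimum of 10 CPM, which leaves out *Neurog1* and *Nhlh1*, they were 0.09 over 7 genes and 0.10 over all genes. All 9 passed the 1 CPM mean, but *Neurog1*, *Neurod4* and *Nhlh1* passed it through SVZ reads alone and so had to differ, and these counts are a description.

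**Figure D1:**
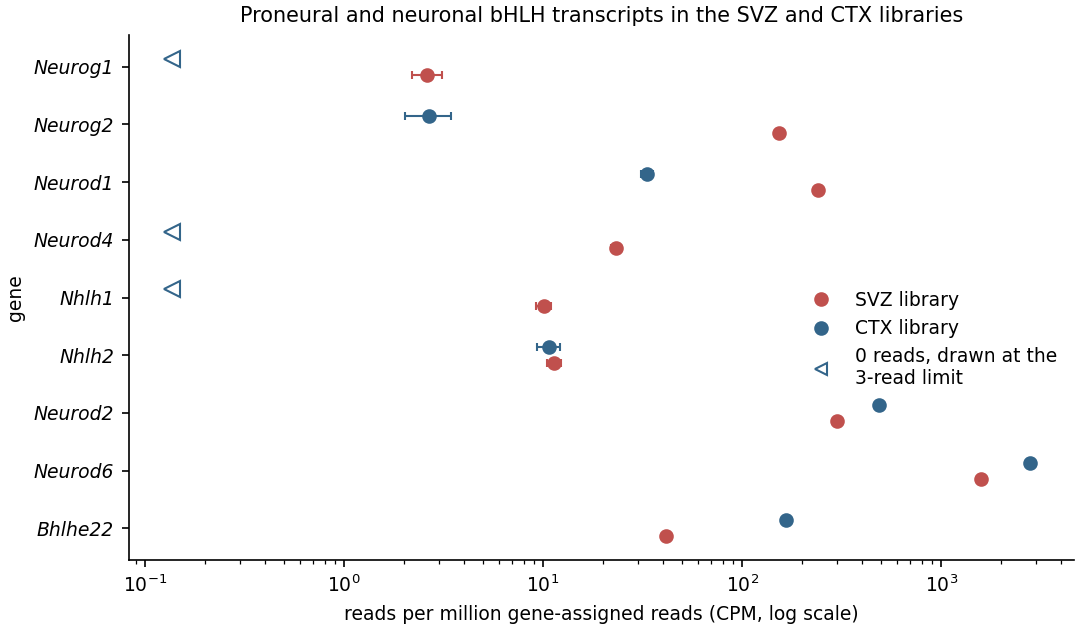
CPM of each of the 9 genes (log scale) in SVZ (red) and CTX (blue). Bars are exact Poisson 95% intervals and open triangles mark 0 reads, drawn at the 3-read limit of 0.136 CPM. Red lies right of blue for the upper 5 genes, the colours meet at *Nhlh2*, and blue lies right of red for the lower 3.

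The neurogenins were examined first, since they stand at the start of the cascade. *Neurog2* (chromosome 3, 127633135 to 127635631, plus strand), the main proneural factor of the dorsal telencephalon, had 7906 reads or 154 CPM in SVZ against 59 reads or 2.68 CPM in CTX. It was thus far higher in SVZ, though its CTX reads lay above the 3-read limit. The ratio was 57.4-fold (interval 44.5 to 75.5), a log2 ratio of 5.84 (5.48 to 6.24), and 1.32% of all genes had a higher ratio or bound, a share that could be larger since genes with 0 CTX reads are placed at their bounds. *Neurog1* (chromosome 13, 56250478 to 56252163, minus strand), its single-exon paralogue, had 135 reads or 2.62 CPM in SVZ against 0 in CTX, so that it was at least 19.3-fold higher in SVZ. Within SVZ *Neurog2* had 58.6 reads for each *Neurog1* read. In CTX the same comparison was 59 reads against 0, which gives no ratio.

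The genes that follow the neurogenins came next. *Neurod1* (chromosome 2, 79452521 to 79456751, minus strand), known from intermediate progenitors and early neurons, had 12363 SVZ reads (240 CPM) and 733 cortex reads (33.2 CPM). It was the one gene of the SVZ-high 5 with over 10 CPM in both libraries, and its ratio was 7.23-fold (6.71 to 7.80), a log2 ratio of 2.85 (2.75 to 2.96). GENCODE M21 places exons of *Cerkl* on the same strand and of *Gm26755* on the opposite strand within *Neurod1*. Adding up the counts of each strand gave *Neurod1* 0 further reads in either library. A loss to *Gm26755* would show there only if the authors' annotation holds that gene, which was not checked. Reads over exons shared with *Cerkl* would have been set aside as ambiguous if the authors' annotation holds the same exons. *Neurod4* (chromosome 10, 130268152 to 130280240, minus strand), which acts with the neurogenins in neuronal commitment, had 1192 reads or 23.2 CPM in SVZ against 0 reads in CTX. This made it at least 170-fold higher in SVZ, the highest bound of the 9. *Nhlh1* (chromosome 1, 172052292 to 172057573, minus strand), a short factor of 133 codons that marks cells leaving the progenitor state, had 519 reads or 10.1 CPM against 0 reads and was at least 74.2-fold higher. *Neurog1*, *Neurod4* and *Nhlh1* were the only ones of the 9 with 0 reads in CTX, where 1.47% of those 12738 genes had 0. None of the 9 had 0 reads in SVZ, where 0.604% of the same 12738 genes had 0.

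*Nhlh2* (chromosome 3, 102010076 to 102015492, plus strand), the close paralogue of *Nhlh1* best known from the hypothalamus, had 585 reads or 11.4 CPM in SVZ against 235 reads or 10.7 CPM in CTX. The levels were within counting error of each other, with a log2 ratio of 0.09 (-0.13 to 0.32), and a difference was not detectable at this depth. An SVZ level of up to 1.25 times, or down to 0.916 times, the cortex level lies in the interval. The 2 Nhlh genes, nearly alike in the sequence above, therefore differed in distribution: *Nhlh1* had 0.887 reads for each *Nhlh2* read in SVZ and 0 of 235 in CTX, a change of at least 69.5-fold. The sign of the *Nhlh2* ratio turned under upper-quartile scaling.

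The factors of postmitotic neurons were read in both areas and leaned to the cortex. *Neurod6* (chromosome 6, 55677822 to 55681263, minus strand), a marker of pyramidal neurons, had 81883 reads or 1592 CPM in SVZ against 61678 reads or 2797 CPM in CTX. It was 1.76-fold higher in CTX (1.74 to 1.78), a log2 ratio of -0.81 (-0.83 to -0.80), and 19.0% of all genes had a lower ratio. *Neurod2* (chromosome 11, 98325415 to 98329648, minus strand), its partner in projection neuron maturation and axon growth, had 15502 reads or 301 CPM in SVZ against 10703 reads or 485 CPM in CTX. Its ratio was 1.61-fold in favour of CTX (1.57 to 1.65), a log2 ratio of -0.69 (-0.72 to -0.65), with 21.8% of all genes lower. Neither interval includes equal levels, but both ratios are modest beside those of the other genes that differed, and neither gene was near the lower limit of SVZ.

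*Bhlhe22* (chromosome 3, 18054174 to 18057517, plus strand), a repressor of postmitotic projection neurons known for its part in cortical area identity, had 2129 reads or 41.4 CPM in SVZ against 3681 reads or 167 CPM in CTX. It leaned to the cortex more than any other of the 9, by 4.03-fold (3.82 to 4.26), a log2 ratio of -2.01 (-2.09 to -1.93), and 6.99% of all genes had a lower ratio. The point value lies barely past 4-fold and the interval does not, so the count of 1 becomes 0 when the whole interval must pass 4-fold, and also with a pseudocount of 1 CPM.

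**Figure D2:**
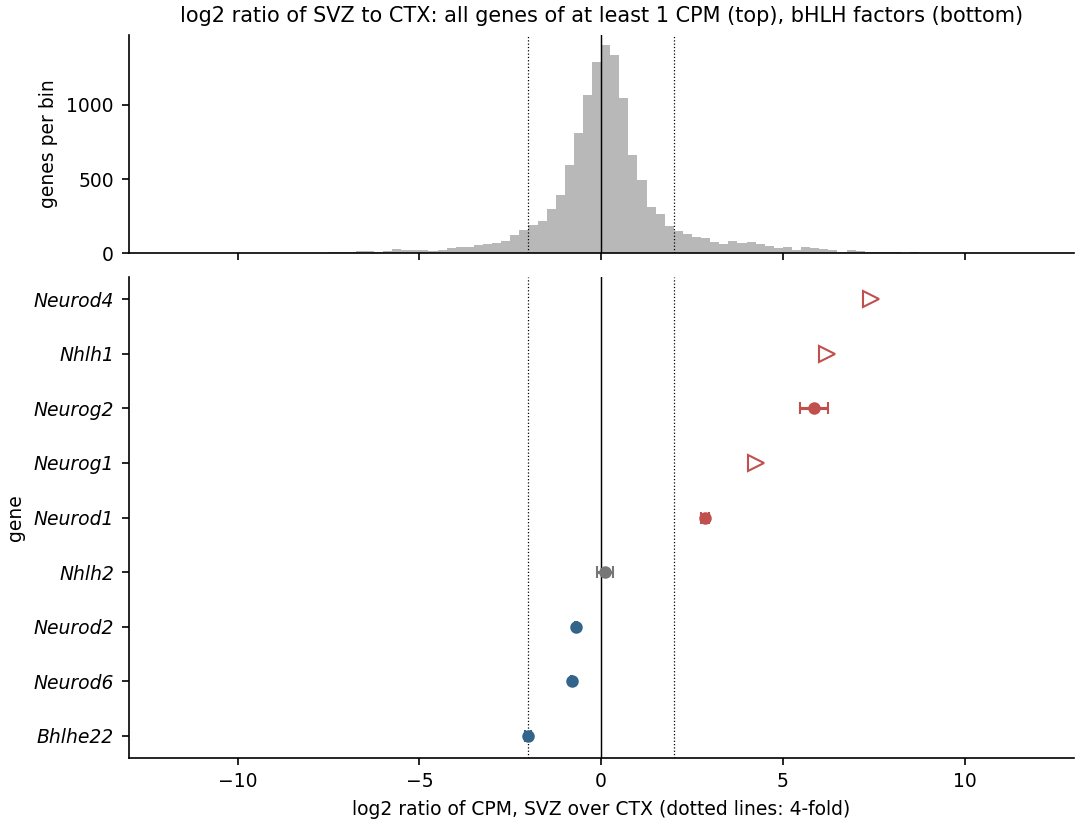
The upper panel is a histogram of log2 ratios (SVZ over CTX) of the 12738 genes whose mean reached 1 CPM. The lower panel gives the 9 genes on the same axis with exact 95% counting intervals, open triangles standing for lower bounds where CTX had 0 reads: 5 genes lie right of the upper 4-fold line, *Nhlh2* (grey) at 0, and *Bhlhe22* on the lower 4-fold line.

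Ratios between the genes inside one library do not depend on how the libraries are scaled against each other, and were compared for fixed pairs. *Neurod1* had 0.798 reads per *Neurod2* read in SVZ and 0.0685 in CTX, a change of 11.6-fold, or 3.54 on the log2 scale (3.43 to 3.66). Against *Neurod6*, *Neurod1* had 0.151 reads per read in SVZ and 0.0119 in CTX, a 12.7-fold change. For *Neurog2* against *Neurod2*, the values were 0.510 and 0.00551, a 92.5-fold change (log2 6.53, interval 6.16 to 6.93). Early and late members of the cascade were thus in different proportion in the libraries whatever the scaling. *Neurod4* had 0.0964 reads per *Neurod1* read in SVZ and 0 against 733 in CTX, at least a 23.6-fold change. So even next to *Neurod1*, itself SVZ-high, *Neurod4* was the more confined to SVZ.

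*Neurod6* and *Neurod2* kept nearly the same proportion to each other, while *Bhlhe22* did not. *Neurod6* had 5.28 reads per *Neurod2* read in SVZ and 5.76 in CTX, a change of 1.09-fold, with a log2 change of -0.13 (-0.16 to -0.09). *Bhlhe22* had 0.137 reads per *Neurod2* read in SVZ and 0.344 in CTX. That is a 2.50-fold shift (log2 -1.32, interval -1.41 to -1.24), so *Bhlhe22* was more weighted to CTX than *Neurod2*.

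Levels of different genes were compared as CPM per kb, the CPM divided by the length of all annotated exons. In SVZ the order was *Neurod6* at 740, *Neurod2* at 95.9, *Neurod1* at 88.1, *Neurog2* at 69.0, *Bhlhe22* at 12.4, *Neurod4* at 6.93, *Nhlh1* at 4.10, *Nhlh2* at 2.10 and *Neurog1* at 1.56 CPM per kb. No neighbours in that order had overlapping Poisson intervals. In CTX it was *Neurod6* at 1301, *Neurod2* at 154, *Bhlhe22* at 49.9, *Neurod1* at 12.2, *Nhlh2* at 1.97 and *Neurog2* at 1.20 CPM per kb, with *Neurog1*, *Neurod4* and *Nhlh1* at 0 and not separable from one another. Thus *Neurod1* and *Neurog2* were close to *Neurod2* in SVZ and far under it in CTX.

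As shares of the summed CPM per kb of the 9 genes, *Neurod6* took 72.6% in SVZ and 85.5% in CTX, and *Neurod2* took 9.40% and 10.2%. The early factors took larger shares in SVZ: *Neurod1* took 8.63% in SVZ and 0.801% in CTX, and *Neurog2* 6.76% and 0.0790%. *Bhlhe22* took 1.21% and 3.28%. The summed reads of all 9 genes came to 2376 CPM in SVZ against 3496 CPM in CTX, a log2 ratio of -0.56 (-0.57 to -0.54). *Neurod6* gave 67.0% of these reads in SVZ and 80.0% in CTX, so the sum mostly follows that gene.

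**Figure D3:**
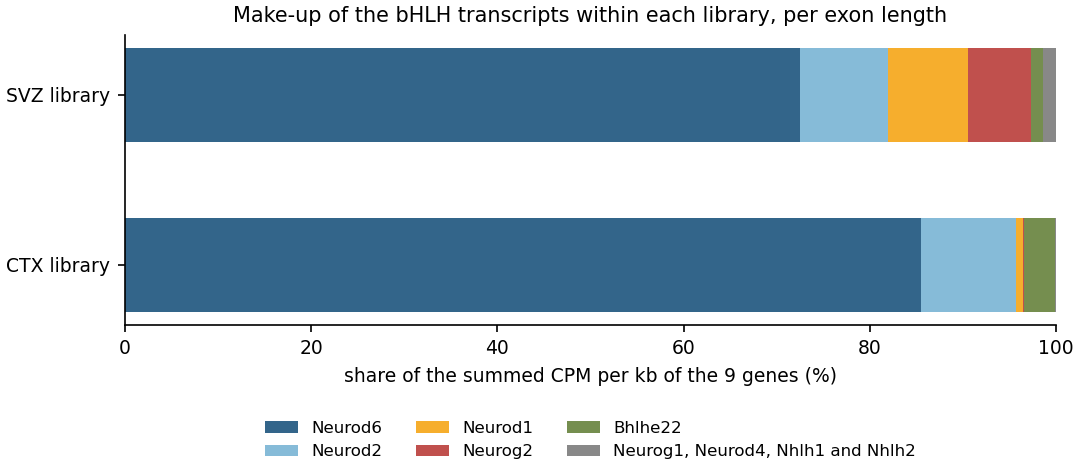
Each bar divides the summed CPM per kb of the 9 genes in 1 library into shares that add up to 100%. *Neurod6* fills 72.6% of the SVZ bar and 85.5% of the cortex (CTX) bar, and the *Neurod1* and *Neurog2* segments of the SVZ bar are 0.801% and 0.0790% in the cortex bar.

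In bulk samples like these, fewer cells of a type and less RNA per cell cannot be told apart. Marker genes of several cell types also differed between the libraries. Apical progenitor markers summed to 6420 CPM in SVZ against 121 CPM in CTX, and of 8 such genes the 7 that reached a mean of 1 CPM were all at least 4-fold higher in SVZ. Intermediate progenitor markers summed to 1068 and 60.9 CPM (6 of 6 at least 4-fold higher in SVZ) and markers of dividing cells to 1445 and 22.4 CPM (5 of 5). Postmitotic neuron markers summed to 1209 CPM in SVZ against 4788 CPM in CTX, with all 6 higher in CTX and 3 of them at least 4-fold. SVZ thus carried markers of apical and of intermediate progenitors, and also held neuronal transcripts. Whether the SVZ piece took in tissue beyond the layer of its label was not tested. Interneuron markers summed to 126 and 96.7 CPM (0 of 6 past 4-fold). *Dlx1* among them had 1821 more SVZ reads and 419 more cortex reads when the counts of each strand were added up. The apical marker *Pax6* had 404 and 42 more, so both sums leave out reads that fell in more than 1 gene. The first strand column held 49.6% of the single-strand counts in SVZ and 49.7% in CTX. Strand therefore does not show which gene such reads came from. Cajal-Retzius markers summed to 3.73 and 30.8 CPM (*Lhx1* and *Lhx5* at 0 in both) and blood vessel markers to 64.4 and 55.6 CPM (0 of 5). Microglial markers summed to 34.6 and 3.85 CPM (4 of 5 in SVZ), and choroid plexus markers to 245 and 0.907 CPM. Of that choroid plexus sum *Ttr* alone gave 240 CPM in SVZ, the other markers had at most 2.74 CPM there, and *Kl* was at 0 in both libraries. Of the erythroid markers, the 4 globin genes were listed at 0 in both libraries, and *Alas2* had 14.8 and 7.48 CPM. The part of cell make-up in the differences of the 9 factors was not tested.

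E-boxes near the start sites are given because several of these genes are described targets of the same family. RefSeq promoter windows (GRCm38.p6, 250 bases before to 50 after the start) were found for 8 of the 9 genes, all but *Bhlhe22*. Both strands were searched for CANNTG, found in 72.3% of 32851 windows of all genes, and for forms of it that neurogenin and Neurod factors are known to prefer: CAGATG, read as CATCTG on the other strand (17.2% of windows), and CATATG (3.91%). Every match of these forms also counts as a CANNTG match. The form CAGATG stood before the start site of *Neurod2*, *Nhlh1* and *Nhlh2*, and CATATG before that of *Neurod1* and *Neurod2*. The window of *Neurog2* held no CANNTG. The lines below give each such box in capitals, on the strand of the gene.
Neurod1, chr2:79456861-79456886: gggaagacCATATGgcgcatgccggg
Neurod2, chr11:98329746-98329775: agtagagagtgaCAGATGgcggcgggtccc
Neurod2, chr11:98329649-98329674: acgtgccaagccCATATGgcctggca
Nhlh1, chr1:172057782-172057811: atgcatggagaaCAGATGtccctgctcccc
Nhlh2, chr3:102010006-102010035: cccacactgtgaCAGATGtcaagtccaatt

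Distances are counted from RefSeq start sites, which differ from the starts implied by the GENCODE gene positions given above. The box began 242 bases before the RefSeq start site in *Neurod1*, 118 and 17 in *Neurod2*, 203 in *Nhlh1* and 127 in *Nhlh2*. These are matches of letters, and the genes that hold them include SVZ-high (*Neurod1*, *Nhlh1*), cortex-high (*Neurod2*) and undivided (*Nhlh2*) ones.

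The dimer partners of the 9 factors leaned to SVZ. *Tcf12* had 214 CPM in SVZ against 35.5 CPM in CTX, a log2 ratio of 2.59 (2.49 to 2.70), and *Tcf3* had 57.2 and 16.6 CPM, a log2 ratio of 1.78 (1.62 to 1.94). *Tcf4* had 1622 and 1066 CPM and a log2 ratio of 0.61 (0.59 to 0.63). Of these E proteins 1 of 3 was at least 4-fold higher in SVZ, and the median log2 ratio was 1.78.

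Among 10 other neural bHLH activators, 1 reached a mean of 1 CPM. It was *Olig1*, a factor of the oligodendrocyte lineage, which had 1.81 and 3.13 CPM, with a log2 ratio of -0.79 (-1.26 to -0.32). *Neurog3*, *Atoh1*, *Bhlhe23* and *Ptf1a* were listed at 0 in both libraries.

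Most genes listed as inhibitors of bHLH activity were also higher in SVZ, though the summed Id reads were not. A list of 8 repressors held 6 Hes and Hey genes and the related *Bhlhe40* and *Bhlhe41*. Of the 8, 5 were at least 4-fold higher in SVZ, and 1 in CTX, with a median log2 ratio of 2.10. Under TMM, upper-quartile or DESeq2 scaling the SVZ count was 4. Of the 6 Hes and Hey genes alone, 4 passed 4-fold in SVZ and 0 in CTX, a division made after the values were seen. One of the 6, *Hes6*, is known to promote neurogenesis rather than oppose it, and had 441 and 208 CPM, a log2 ratio of 1.09 (1.04 to 1.13). The Notch effectors *Hes5* and *Hes1* had log2 ratios of 6.04 (5.56 to 6.56) and 3.65 (3.45 to 3.87), and *Hey2* had 2.88 (2.01 to 3.91). On the other side *Bhlhe41* had 0.642 CPM in SVZ against 7.94 CPM in CTX, a log2 ratio of -3.63 (-4.21 to -3.09), while for *Heyl* (1.46 and 2.09 CPM) the interval included equal levels. The 4 Id genes were divided, with 2 at least 4-fold higher in SVZ and a median log2 ratio of 2.09. *Id4*, *Id1* and *Id3* had log2 ratios of 3.68, 2.40 and 1.79. *Id2* had 225 CPM in SVZ against 738 CPM in CTX, a log2 ratio of -1.72 (-1.75 to -1.68). The 4 genes summed to 393 CPM in SVZ against 758 CPM in CTX, a sum that mostly follows *Id2*. *Id4* had 505 more SVZ reads and 19 more cortex reads when the counts of each strand were added up, so its unstranded count leaves out reads that were ambiguous without strand.

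Cofactors of these factors showed no common side: the median log2 ratio over 8 genes was 0.04, which turned below 0 under TMM, upper-quartile and DESeq2 scaling, with 0 of them at least 4-fold higher in SVZ, and 1 in CTX. That 1 was *Runx1t1*, a corepressor of the same family as *Cbfa2t2* and *Cbfa2t3*, with 92.0 CPM in SVZ against 804 CPM in CTX (log2 ratio -3.13, interval -3.17 to -3.08). Its relatives leaned the other way, *Cbfa2t2* at 1.32 and *Cbfa2t3* at 0.51. *Prdm8*, which forms a repressor complex with *Bhlhe22*, had 15.8 and 30.1 CPM, at a log2 ratio of -0.93 (-1.08 to -0.78), on the same side as *Bhlhe22* and smaller. The LIM-only genes *Lmo1* and *Lmo3* had log2 ratios of 0.98 and -0.94.

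Genes described elsewhere as targets of the neurogenins were mostly SVZ-high, as *Neurog2* was. Of 10, 6 were at least 4-fold higher in SVZ, and 0 in CTX, with a median log2 ratio of 3.00. *Eomes*, the intermediate progenitor factor, had 11659 reads in SVZ against 2 in CTX (log2 ratio 11.29, interval 9.43 to 14.33). *Mfng*, a modifier of Notch, and *Gadd45g*, a growth arrest gene, had log2 ratios of 5.00 and 4.55. *Dll3* alone went the other way, at -0.68 (-0.94 to -0.43). Of these 10 genes, 5 are also intermediate progenitor markers counted above (*Eomes*, *Btg2*, *Gadd45g*, *Insm1* and *Mfng*), *Hes6* is also among the repressors and *Cbfa2t3* among the cofactors, so the lists are not separate evidence.

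A short list pooled described targets of the Neurod, Bhlhe22 and Nhlh factors. These factors were themselves SVZ-high (*Neurod1*, *Neurod4*, *Nhlh1*), level (*Nhlh2*) or higher in CTX (*Neurod2*, *Neurod6*, *Bhlhe22*). Whether the targets followed any of them was not tested. Of 5 such genes the 4 that reached a mean of 1 CPM were all higher in CTX, 1 of them at least 4-fold. Their median log2 ratio was -1.27, beside 0.11 over all genes. *Mc4r*, a receptor gene described as an *Nhlh2* target in the hypothalamus, had 0 reads in SVZ against 2999 in CTX, while *Nhlh2* itself was level. The cell adhesion genes *Cntn2* and *Cdh11* had log2 ratios of -1.24 (-1.29 to -1.20) and -1.30 (-1.40 to -1.20), the second of which *Bhlhe22* is known to repress. The calcium sensor *Stim1* had -0.57 (-0.88 to -0.25), and *Pcsk1* had 32 and 24 reads, too few to reach the minimum.

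**Figure D4:**
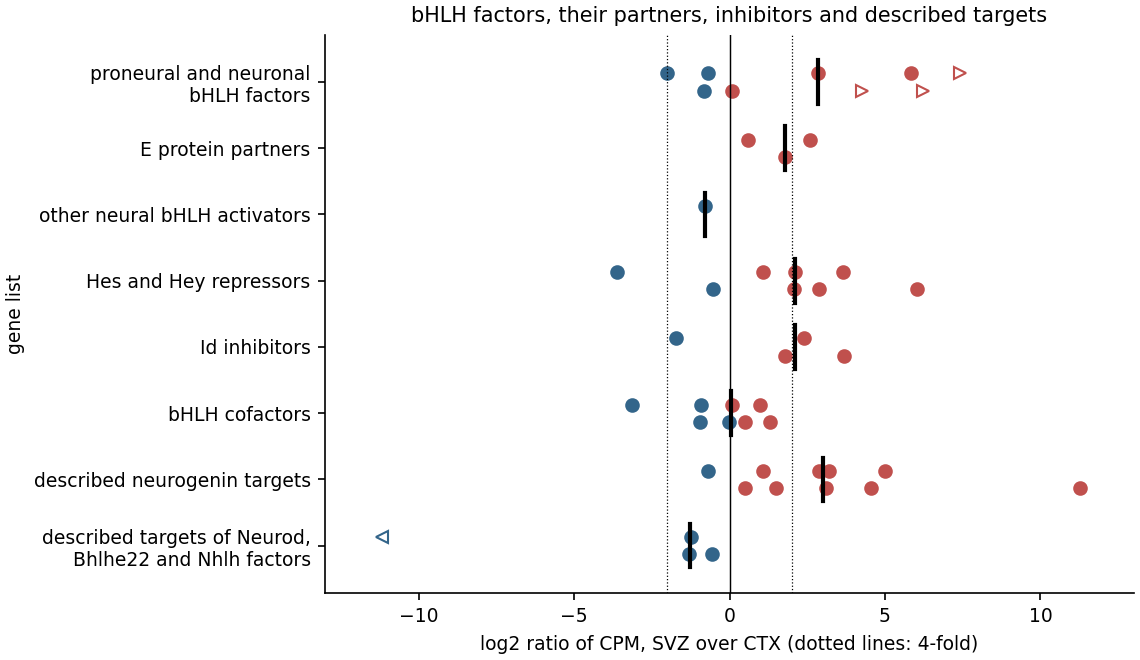
Each point is the log2 ratio (SVZ over CTX) of 1 gene whose mean reached 1 CPM, by gene list, red for higher in SVZ and blue for higher in CTX. Open triangles are bounds, black bars are list medians, dotted lines mark 4-fold, and the repressor row includes *Bhlhe40* and *Bhlhe41*: the neurogenin targets centre at 3.00 and the Neurod, Bhlhe22 and Nhlh targets at -1.27.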

How the data were processed

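Bulk RNA-seq followed laser microdissection, with 1 library per area. Per the study's methods, the authors trimmed adapters (cutadapt 4.1), mapped read 1 to mm10 with STAR 2.7.9a and let STAR count reads per gene. The deposited counts are raw and whole, in an unstranded column and 2 columns of single strands. STAR leaves out reads that map to several places or fall in more than 1 gene. A deposited table of the authors' merged counts, CPM and fold changes was not used. The unstranded counts were analysed here, without the 4 lines of unassigned reads, as CPM of the gene-assigned total, which holds 59.0% of SVZ reads and 59.1% of cortex reads. One read is worth 0.0194 CPM (SVZ) or 0.0454 CPM (CTX). Ratios between libraries carry exact 95% Clopper-Pearson intervals. Ratios between genes of a library have exact conditional intervals. Counts of genes past 4-fold cover those whose mean reached 1 CPM.

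The genes, their lists and these rules were chosen with earlier results of these data known. Named are the 9 factors, every gene of lists of 5 or fewer, and of longer lists up to 3 genes per direction by the interval end nearer 0 and genes at 0 in both libraries. Marker lists are given as sums. A further list gene is not reported here. Positions and exon lengths come from GENCODE M21 (GRCm38, which mm10 equals), with 9 of 9 symbols matched. Coding bases were compared in place of proteins, whose sequences were not used here. Other settings tried were size factors from DESeq2 1.42.0, scaling by TMM or by the upper quartile in edgeR 4.0.16, and a total that drops the 10 most counted genes of each library. Stranded sums, a thinned SVZ library, a pseudocount of 1 CPM, other minimums and folds, and longest-transcript lengths were also tried. The ratios between libraries and their intervals were tested on simulated Poisson counts, which hold no PCR copies. The other procedures were not tested this way. Python 3.11.15, scipy 1.17.1, biopython 1.88 and R 4.3.3 were used.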

Additional observations from a re-analysis of the deposited data

How the results depend on the processing

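No paired analysis was possible because the design holds a lone library for each area, which also leaves no replicate to take out. The same 5 genes passed 4-fold on the SVZ side, and *Bhlhe22* on the CTX side, under the 4 other scalings, the stranded sums and thinning. These scalings shifted the median of all genes by -0.10 to -0.03 (log2). Under TMM, upper-quartile and DESeq2 scaling the log2 ratio of *Neurod2* was -0.78, -0.79 and -0.78, of *Neurod6* -0.91, -0.91 and -0.91, of *Bhlhe22* -2.10, -2.11 and -2.11, the median of the Neurod, Bhlhe22 and Nhlh targets -1.37, -1.37 and -1.37, and that of the cofactors turned to -0.053, -0.059 and -0.053. Under each of them 4 of the 8 repressors were past 4-fold in SVZ. The *Nhlh2* log2 ratio, near 0 throughout, was -0.0050 under upper-quartile scaling. Without the 10 most counted genes of each library *Neurod6* was at -0.85. The median of the other bHLH activators was then -0.016, where 2 genes passed the minimum in place of 1. A pseudocount of 1 CPM, which draws low counts to 0, gave *Neurog1* 1.86, *Neurog2* 5.40, *Neurod4* 4.60 and *Nhlh1* 3.47, left 4 genes past 4-fold in SVZ (not *Neurog1*) and 0 in CTX, and put the 8 repressors at a median of 1.75 with 3 past 4-fold. A minimum of 10 CPM kept 7 of the 9 genes, 3 past 4-fold in SVZ, with 609 and 424 of 9027 genes in all past 4-fold and 0 repressors past 4-fold in CTX, and left none of the other activators. With no filter 1473 genes were past 4-fold in CTX, the median of the other activators changed sign to 0.91, and 1 of them was past 4-fold in SVZ. At 2-fold the counts of all genes were 2547 and 1992, at 10-fold 713 and 381, with 4 and 0 of the 9 genes, and with whole intervals past 4-fold 0 of the 9 in CTX. With the longest transcript as length *Nhlh2* had 2.88 and 2.70 CPM per kb, in the same place in the order. Stranded sums added at most 2 reads to any of the 9 genes.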
